A study of Mus musculus with 12 samples.

Results

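Fragile X syndrome is caused by loss of FMRP, the RNA-binding protein encoded by *Fmr1*. The 8 genes described here are *Fmr1*, its paralogs *Fxr1* and *Fxr2*, and the genes of 5 proteins that bind FMRP or its paralogs, *Cyfip1*, *Cyfip2*, *Nufip1*, *Nufip2* and *Caprin1*. They were chosen by name from the 55421 genes counted in mouse hippocampus, and all 8 were among the 22592 genes with enough reads to be tested. The mice fell into 4 groups of 3, namely WT and *Fmr1* KO animals that received either vehicle or Nutlin-3, an inhibitor of the binding of MDM2 to p53. These groups are called WT-Veh and WT-Nut3 for the WT mice, and KO-Veh and KO-Nut3 for the KO mice. Injections were intraperitoneal at 2 months of age, and the hippocampi were taken at 6 months. Each of the 12 libraries carries a number from RH1 to RH16, taken here as an animal number. The methods give the C57B/L6 background for the mice. Which exon the allele disrupts, and whether these animals carried the Nestin-GFP transgene used elsewhere in the study, is not given in the sources used here.

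FMRP binds messenger RNAs in the cytoplasm, represses the translation of many of them and travels in granules to synapses. FXR1 and FXR2 share its RNA-binding domains and can pair with it. CYFIP1 and CYFIP2 sit in the WAVE complex, which drives the branching of actin filaments downstream of RAC1, and CYFIP1 can also repress cap-dependent translation together with FMRP. NUFIP1 is a nuclear RNA-binding protein that helps to assemble box C/D small nucleolar RNPs, NUFIP2 binds FMRP and enters stress granules, and CAPRIN1 is a granule protein that pairs with G3BP1. Whether the RNA levels of the related genes are higher when *Fmr1* is lost is the question behind the comparison of genotypes.

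Each library had between 17150820 and 20040482 reads on genes. Levels are given as CPM, the reads of a gene scaled to a common library size with the TMM factors of edgeR. The label of hippocampus was checked with 10 genes of hippocampal neurons, and all 10 had reads in all 12 libraries. Their summed level was 993.9 CPM in KO-Nut3 RH6 and between 1361 and 1569 CPM in the other libraries. *Zbtb20* was the most abundant in each. In RH6, *Wfs1* was an exception, at 115.6 CPM against 78.75 to 102 CPM in the other KO libraries. The other genes of the list were lowest in RH6. The 7 thalamic markers summed to 278.5 CPM in KO-Nut3 RH6 and to between 89.4 and 111.3 CPM elsewhere. KO-Nut3 RH6 thus stood apart in 2 marker lists at once. *Slc17a6*, a glutamate transporter of thalamic and other subcortical neurons, made up most of the excess, with 112.6 CPM in RH6 and at most 22.2 CPM in any other library. *Tcf7l2*, *Calb2* and *Lef1* were also highest there, while *Prkcd*, *Plekhg1* and *Ramp3* were within the range of the other libraries. The 4 hemoglobin genes of the blood list summed to 81.7 CPM in RH6, the highest value, against 40.4 to 67.8 CPM elsewhere, with *Hbb-bs* the most abundant. The 3 microglial markers, led by *Cx3cr1*, had their lowest sum there, 76.0 CPM against 83.7 to 107.5 CPM. The sum of the 7 markers of meningeal fibroblasts was highest in KO-Nut3 RH8, at 174.2 CPM, with 44.8 to 139.6 CPM in the other libraries. *Dcn*, the most abundant of them by mean, was not highest there, at 56.54 CPM against 58.26 CPM in WT-Veh RH5. The 3 oligodendrocyte markers, led by *Mbp*, were lowest in WT-Veh RH2, at 2811 CPM. Elsewhere they summed to 3298 to 4710 CPM, with the highest sum in KO-Nut3 RH6. WT-Veh RH2 also had the highest sum of hippocampal neuron markers, 1569 CPM. The 3 astrocyte markers, led by *Gfap*, summed to 510.3 to 605.0 CPM in WT and to 580.0 to 687.7 CPM in KO, so the genotypes overlapped. Among them the water channel gene *Aqp4*, named after its values were seen, had 128.9 to 142.5 CPM in WT and 152.1 to 191.9 CPM in KO, without overlap, a separation shown by 0.536% of all genes. The genotypes overlapped in the other astrocyte markers. *Gfap* had 346.3 to 416.8 CPM in WT and 392.4 to 480.4 CPM in KO. *Aldh1l1* had 35.17 to 45.65 CPM in WT and 30.92 to 48.64 CPM in KO. The part of these markers in the values of the 8 genes was not tested.

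Choroid plexus markers were also uneven. The 12 genes of that list summed to 6585 CPM in WT-Nut3 RH9. Within KO-Nut3 the sum was 5090 CPM for RH6, 7051 CPM for RH13 and 661.8 CPM for RH8, against 153.6 to 221.3 CPM in the other 8 libraries. *Ttr* was the most abundant of the list in these 4 libraries, at 313.5 to 4520 CPM, and *Enpp2* in the other 8, where *Ttr* had 3.15 to 18.2 CPM. *Kcnj13*, a defining marker, had 0 reads in WT-Veh RH2 and KO-Veh RH10. All 3 KO-Nut3 libraries are in the high set, and the part of these markers in the values of that group was not tested except where a fit is named. In tissue RNA, fewer cells of a type and less RNA per cell cannot be told apart. The labels do not give the sex of the animals, but all 12 libraries expressed the Y-linked gene *Ddx3y* at 57.2 to 77.9 CPM, while *Xist*, the RNA of the inactive X chromosome, had 2 to 15 reads. The animals were thus males, with a single copy of the X-linked *Fmr1*.

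*Fmr1* lies on chromosome X from 68678541 to 68717963 (mm10, plus strand, ENSMUSG00000000838) and its merged exons cover 8966 bases. In WT-Veh its level was 79.5 CPM in RH2, 75.3 CPM in RH5 and 77.7 CPM in RH15. In WT-Nut3 it was 75.2 CPM in RH1, 74.0 CPM in RH9 and 78.3 CPM in RH14. These 6 values span a narrow range whatever the treatment. In KO-Veh the level was 32.7 CPM in RH7, 32.5 CPM in RH10 and 37.3 CPM in RH16, and the KO-Nut3 animals RH6, RH8 and RH13 had 30.6, 28.5 and 35.7 CPM. Every KO library was below every WT library, and no library went against its genotype label.

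**Figure D1:**
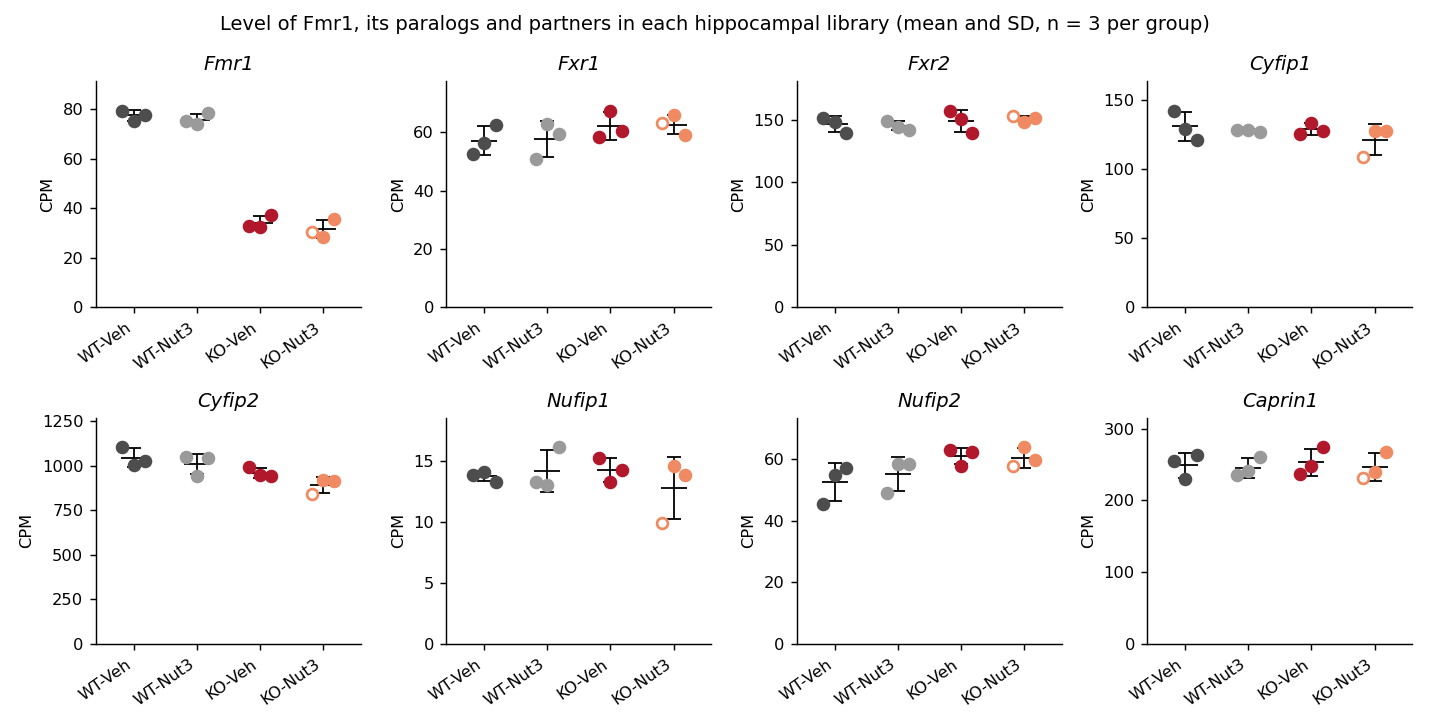
Level in CPM (linear axis from 0) of each of the 8 genes in each library, by group. Points are libraries, the open point is KO-Nut3 RH6, and bars show mean and SD of 3 libraries. *Fmr1* lies between 28.5 and 37.3 CPM in all KO libraries and between 74.0 and 79.5 CPM in all WT libraries, while the other 7 genes overlap between the genotypes.

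*Fmr1* RNA fell in KO hippocampus but was far from absent. Over all libraries the mean was 32.9 ± 3.24 CPM in KO and 76.7 ± 2.16 CPM in WT (SD, n = 6 each). The log2 fold change was -1.22 (SE 0.0555, 95% interval -1.34 to -1.10, edgeR adjusted *P*-value 1.71e-08). The KO level was thus 42.9% of the WT level (95% interval 39.5% to 46.5%). It rested on 497 to 655 reads per KO library, against 1331 to 1509 reads per WT library. The count is summed over the whole gene, so it does not show which exons the residual reads cover. It is a count of RNA and gives no measure of FMRP protein.

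The residual level was similar with and without Nutlin-3 in the main fits. Between KO-Nut3 and KO-Veh the log2 fold change of *Fmr1* was -0.12, uncalled. With a score of the choroid plexus markers in the fit it was -0.49, also uncalled. That score was 0.562 to 1.324 in KO-Veh and 3.158 to 6.351 in KO-Nut3, without overlap. The fit can therefore hardly separate the score from treatment. KO-Veh had 44.1% of the level of WT-Veh (log2 fold change -1.18, adjusted *P*-value 1.76e-06), and under Nutlin-3 the KO level was 41.5% of the WT level (log2 fold change -1.27, adjusted *P*-value 0.00405). The interaction of genotype and treatment on the log2 scale was -0.08 (95% interval -0.32 to 0.16, adjusted *P*-value 0.994), and with 1 library left out it ranged from -0.18, without KO-Nut3 RH13, to -0.01, without KO-Nut3 RH8. When the reads were split by strand, KO had 42.3% of WT in the first strand column and 43.6% in the second. Because the library does not mark strand, these are a pair of read subsets of the same gene, and they gave close to the same share. Without KO-Nut3 RH6 the log2 fold change over all libraries was -1.21. Without the 4 libraries with high choroid plexus markers it was -1.17 (adjusted *P*-value 1.05e-06). Those 4 are WT-Nut3 RH9 and every KO-Nut3 library, so KO-Veh was the only KO group in that fit. One call was less firm, since without WT-Nut3 RH14 the adjusted *P*-value between KO-Nut3 and WT-Nut3 was 0.0991 at a log2 fold change of -1.24.

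*Fmr1* was the one gene of the 8 that passed the threshold in the genotype comparisons, under vehicle, under Nutlin-3 and over all libraries. Among all genes tested, 0.0177% passed between KO-Veh and WT-Veh, 0.00443% between KO-Nut3 and WT-Nut3, and 0.00443% over all libraries, which in the last comparison is *Fmr1* alone. It was also the one gene of the 8 whose KO and WT values did not overlap over 6 libraries a side, a separation that 0.536% of all genes showed. At an unadjusted *P*-value under 0.05 the members were 3 of 8 under vehicle (*Fmr1*, *Cyfip2* and *Nufip2*, against 7.2% of all genes) and 2 of 8 under Nutlin-3 (*Fmr1* and *Cyfip2*, against 4.87%). The members had a median log2 fold change of -0.02 over all libraries, and all genes tested one of 0.01.

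**Figure D2:**
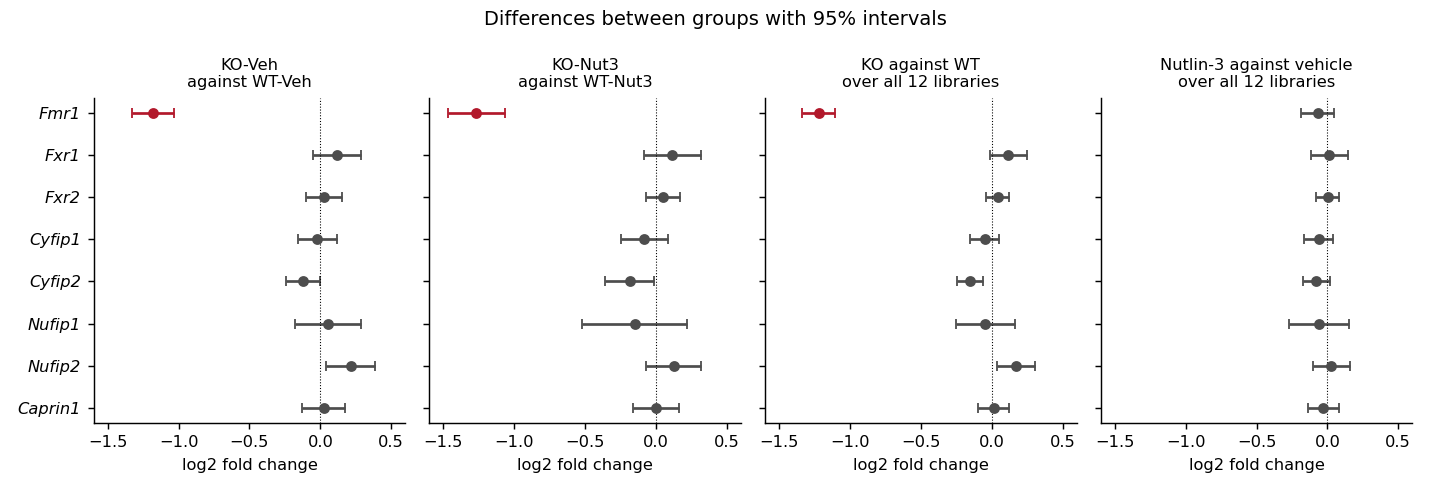
Log2 fold changes (points) with 95% intervals (bars) of the 8 genes in 4 comparisons, red where the adjusted *P*-value of edgeR is under 0.05. *Fmr1* is at -1.18, -1.27 and -1.22 in the genotype comparisons and at -0.07 for Nutlin-3 against vehicle, and the points of the other genes lie between -0.19 and 0.21.

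The paralogs come next, since they are the closest relatives of *Fmr1*. *Fxr1* is autosomal (chromosome 3, 34019943 to 34070322, ENSMUSG00000027680) and is best known for its role in muscle and heart. Its level was 52.5, 56.4 and 62.6 CPM in WT-Veh and 50.9, 62.8 and 59.5 CPM in WT-Nut3. In KO it was 58.4, 67.5 and 60.3 CPM with vehicle and 63.1, 65.9 and 59.1 CPM with Nutlin-3. The lowest values were WT and the highest KO, but the ranges overlapped. KO had 108.5% of the WT level over all libraries, with a 95% interval from 99.3% to 118.6% (log2 fold change 0.12, adjusted *P*-value 0.652). The log2 difference was 0.12 under vehicle and 0.11 under Nutlin-3, and with 1 library left out it ranged from 0.06 to 0.20 and from 0.03 to 0.18. The interval over all libraries holds an equal level as well as one of 118.6%.

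*Fxr2* (chromosome 11, 69632990 to 69653297, ENSMUSG00000018765) encodes the other paralog, an RNA-binding protein with a known part in adult hippocampal neurogenesis. It was the steadiest of the 8, with a within-group SD of 0.058 on the log2 scale against a median of 0.102 for genes at 10 CPM or more. WT libraries ranged from 139.5 to 151.6 CPM and KO libraries from 139.5 to 157.4 CPM, with medians of 146.3 and 151.1 CPM. The genotypes thus shared the same lowest value. KO had 102.9% of the WT level, and the 95% interval ran from 97.4% to 108.7% (log2 fold change 0.04, adjusted *P*-value 0.831). With 1 library left out the log2 fold change ranged from 0.02, without KO-Veh RH7, to 0.06, without KO-Veh RH16.

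Levels of the 3 family genes can be set side by side after division by exonic length, in CPM per kb. In WT the level was 8.55 ± 0.241 for *Fmr1*, 8.77 ± 0.774 for *Fxr1* and 38.7 ± 1.23 for *Fxr2* (SD, n = 6). *Fxr2* was thus the main family transcript, 4.53 times *Fmr1*, while *Fmr1* and *Fxr1* overlapped. *Fmr1* made up 15.3% ± 0.438 of the family total in WT and 6.93% ± 0.809 in KO. The mean level of *Fmr1* was 4.88 CPM per kb lower in KO than in WT, and the summed paralogs were 1.87 CPM per kb higher. The paralog sum was 47.5 ± 0.662 in WT and 49.4 ± 1.62 in KO, and its ranges, 46.6 to 48.2 and 46.2 to 50.7, overlapped. The overlap rested on KO-Veh RH16, at 46.2, while the other KO libraries had 49.2 to 50.7. The difference in this sum was not tested. The family total ranged from 55.3 to 57.1 CPM per kb in WT and from 50.4 to 54.4 in KO. It was therefore below WT in every KO library, a separation to which the loss of *Fmr1* itself contributes.

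**Figure D3:**
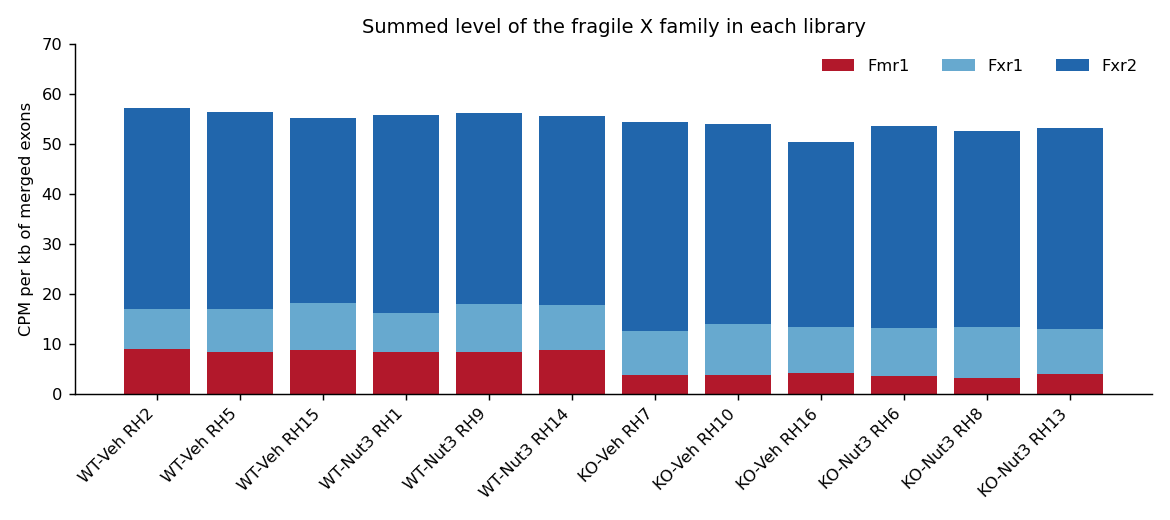
Level of *Fmr1*, *Fxr1* and *Fxr2* in each library, stacked, in CPM per kb of merged exons (linear axis from 0). The red *Fmr1* segment is 8.25 to 8.87 in WT and 3.18 to 4.16 in KO, and the total is 55.3 to 57.1 in WT and 50.4 to 54.4 in KO.

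These ratios depend on the length used. *Fmr1* and *Fxr1* have many annotated transcripts, and with the longest coding transcript of each gene in place of its merged exons the WT levels were 17.4 for *Fmr1*, 19.1 for *Fxr1* and 49.4 for *Fxr2*. The *Fmr1* share of the family was then 20.2% in WT and 9.45% in KO, and *Fxr2* was 2.84 times *Fmr1*. The order within the family was the same by both lengths. *Fxr1* also shares 178 exonic bases with *Dnajc19* on the opposite strand. The strand columns together hold 16262 *Fxr1* reads, 22.8% more than the 13248 counted without regard to strand, and because the library does not mark strand the reads of that overlap cannot be assigned to either gene.

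Among the partners, *Cyfip2* had the highest level and, after *Fmr1*, the smallest *P*-value between the genotypes over all libraries. The gene lies on chromosome 11 (46193850 to 46312859, minus strand, ENSMUSG00000020340) and encodes a WAVE subunit abundant in brain. Its level was 1103, 1005 and 1026 CPM in WT-Veh, and 1047, 944 and 1040 CPM in WT-Nut3. In KO-Veh it was 993.1, 947.1 and 940 CPM, and in KO-Nut3 it was 841.5, 921.3 and 911.1 CPM. All KO-Veh values were below all WT-Veh values, and all KO-Nut3 values were below all WT-Nut3 values. Such a separation of 3 against 3 was shown by 12.4% and 10.7% of all genes in these comparisons. Over 6 a side the groups overlapped, because WT-Nut3 RH9 was lower than 2 of the KO-Veh libraries.

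KO had 90.1% of the WT level of *Cyfip2* (95% interval 84.4% to 96.1%), and its log2 fold change was -0.15 (SE 0.0437). The *P*-value was 0.00351 before adjustment and 0.417 after it in edgeR, and 0.0691 after adjustment in DESeq2. By itself the interval leaves out 0, but unadjusted *P*-values under 0.05 were found for 8.16% of all genes in this comparison. *Fmr1*, *Cyfip2* and *Nufip2* were the 3 members that did. The lowest KO value was that of KO-Nut3 RH6 and the lowest WT value that of WT-Nut3 RH9, both libraries with high choroid plexus markers. Without KO-Nut3 RH6 the log2 fold change of *Cyfip2* was -0.13, in the fit that holds the choroid plexus score it was -0.11, and without the 4 libraries with high scores -0.11. Without WT-Nut3 RH9 alone it was larger, -0.17. The direction was the same in all of these fits, while the size moved both ways. The fit without the 4 libraries held KO-Veh but no KO-Nut3 library. Under vehicle the log2 fold change was -0.12, and -0.08 without WT-Veh RH2, the highest WT value.

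*Cyfip1* (chromosome 7, 55841745 to 55932602, ENSMUSG00000030447) lies in the region homologous to human 15q11.2. WT libraries ranged from 121.1 to 142.2 CPM with a median of 128.1 CPM, and KO libraries from 108.3 to 133.4 CPM with a median of 127.5 CPM. The medians were thus nearly equal, and the lowest value was again KO-Nut3 RH6. KO had 96.6% of the WT level (95% interval 89.9% to 103.8%, adjusted *P*-value 0.842), and without KO-Nut3 RH6 the log2 fold change moved from -0.05 to -0.02. Per kb, *Cyfip2* was 13.4 ± 0.655 times *Cyfip1* in WT and 12.5 ± 0.594 times in KO (SD, n = 6). With the longest coding transcripts the WT ratio was 7.69. The counts of *Cyfip1* are uncertain, since it shares 1316 exonic bases with *Nipa2* on the opposite strand. The strand columns held 23.4% more *Cyfip1* reads than the column without strand.

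*Nufip2* (chromosome 11, 77686155 to 77741921, ENSMUSG00000037857) was the partner with the largest positive difference in KO. Its level was 45.6, 55.1 and 57.2 CPM in WT-Veh and 48.9, 58.4 and 58.7 CPM in WT-Nut3. In KO-Veh it was 63.0, 58.0 and 62.4 CPM, above all WT-Veh libraries, a separation shown by 12.4% of all genes. In KO-Nut3 it was 57.7, 64.0 and 59.8 CPM, overlapping WT-Nut3. The WT values were spread by a pair of low libraries, WT-Veh RH2 and WT-Nut3 RH1. KO had 112.6% of the WT level (95% interval 102.8% to 123.4%), with a *P*-value of 0.0142 that became 0.48 after adjustment, beside the 8.16% of all genes under 0.05 before it. The log2 fold change was 0.17, or 0.12 in the first strand column and 0.22 in the second, and it was 0.19 without KO-Nut3 RH6. Without the low WT libraries it was smaller, 0.13 without WT-Veh RH2 and 0.14 without WT-Nut3 RH1. Under vehicle *Nufip2* had a log2 fold change of 0.21, which was 0.12 without WT-Veh RH2 and 0.14 when the fit held the choroid plexus score.

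*Nufip1* (chromosome 14, 76110891 to 76137379, ENSMUSG00000022009) had the fewest reads of the 8, 179 to 296 per library. Its median was 13.6 CPM in WT and 14.1 CPM in KO. KO-Nut3 RH6 had 9.93 CPM, below all other KO libraries, which had 13.3 to 15.3 CPM. The log2 fold change was -0.05 with this library and 0.03 without it. The 95% interval of the ratio, 83.8% to 112.1%, was the widest of the 8 genes. *Caprin1* (chromosome 2, 103762941 to 103797649, minus strand, ENSMUSG00000027184) had 229.6 to 262.9 CPM in WT and 231.0 to 274.0 CPM in KO, with medians of 247.6 and 244.1 CPM. The genotypes thus covered nearly the same range. KO had 100.9% of the WT level (95% interval 93.6% to 108.9%, adjusted *P*-value 0.966).

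In WT hippocampus the order of levels per kb of merged exons was *Cyfip2*, *Fxr2*, *Caprin1*, *Cyfip1*, *Nufip2*, *Fxr1*, *Fmr1* and *Nufip1*, from 144.7 down to 3.52 CPM per kb. The first 3 were apart from each other and from the rest by more than their ranges. *Nufip2*, *Fxr1* and *Fmr1* overlapped, at 7.88 to 10.1, 7.76 to 9.58 and 8.25 to 8.87 CPM per kb. With the longest coding transcript *Nufip2* moved behind *Fxr1* and *Fmr1*, and the other genes were in the same order. In KO, *Fmr1* was at 3.67 CPM per kb, beside 3.52 CPM per kb for *Nufip1* in WT.

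Nutlin-3 had been given 4 months before, and the comparison asks whether any of the 8 genes still differed. The threshold was passed by 0 of the 8 in KO-Nut3 against KO-Veh, where 0.199% of all genes passed and 7.6% had an unadjusted *P*-value under 0.05. In WT-Nut3 against WT-Veh it was passed by 0 of 8, where 0% of all genes passed and 3.17% were under 0.05 before adjustment. In both, 0 of the 8 had an unadjusted *P*-value under 0.05, and in WT 0 of the 8 were separated by treatment, against 7.52% of all genes. Over all libraries 0 of the 8 passed as well, with 0 at an unadjusted *P*-value under 0.05 against 7.29% of all genes, and 0 were separated by treatment, against 0.243%. DESeq2 and the other fits also called 0 of the 8, though the number of all genes called varied widely. In KO-Nut3 against KO-Veh it was 45 in edgeR, 244 in DESeq2, 544 with every gene of at least 1 count and 0 when all 12 libraries shared one fit. Over all libraries it was 0 in edgeR, 79 in DESeq2 and 539 with every gene of at least 1 count. *Fmr1* had a log2 fold change of -0.07 for Nutlin-3 (95% interval -0.19 to 0.05). In KO alone it was -0.12 (95% interval -0.34 to 0.11), from -0.21 without KO-Nut3 RH13 to -0.05 without KO-Veh RH16, and in WT -0.03 (95% interval -0.15 to 0.09). With the choroid plexus score in the fit, the value in KO was -0.49, not called. It lies outside the KO interval given above. The score did not overlap between KO-Veh and KO-Nut3, so that fit can hardly separate it from treatment. Over all libraries *Cyfip2* had the largest shift among the 8, -0.08 (95% interval -0.17 to 0.02), and all its KO-Nut3 values were below its KO-Veh values, a separation seen in 13.3% of genes. When the fit held the choroid plexus score, the shift of *Cyfip2* was 0.02, the opposite direction. Of the interaction of genotype and treatment, 0 of the 8 passed, where 0% of all genes passed and 4.17% had an unadjusted *P*-value under 0.05.

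The complexes around the partners were described through lists of genes. Between 0% and 0.199% of all genes passed in each comparison, so a count of 0 in a short list is what this background gives. The WAVE list held 10 genes that work with the CYFIP proteins, of which 0 passed in any comparison, and 3 were higher and 7 lower in KO over all libraries (median log2 fold change -0.03, all genes 0.01). Its most abundant genes were *Nckap1*, the binding partner of CYFIP in the complex, at 776.3 CPM in WT and 706.3 CPM in KO, *Wasf1*, at 370.6 and 347.4 CPM, and *Rac1*, the activating GTPase, at 254.8 and 253.5 CPM. *Nckap1* was the one gene of the 10 with an unadjusted *P*-value under 0.05, beside 8.16% of all genes (log2 fold change -0.14, *P*-value 0.0319, adjusted *P*-value 0.559). Its lowest KO value, 592.3 CPM, was in KO-Nut3 RH6, and without that library the log2 fold change was -0.09. *Wasf1* was also lowest there, at 262.3 CPM against at least 350.5 CPM in the other KO libraries.

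Of 23 genes for proteins of FMRP granules, stress granules, RNA silencing and cap binding, 0 passed in any comparison, with 13 higher and 10 lower in KO (median log2 fold change 0.02). The most abundant were *Purb*, at 537.9 CPM in WT and 534.8 CPM in KO, *Eif4g1*, at 349.5 and 355.4 CPM, and *G3bp2*, at 310.7 and 302.2 CPM. A *P*-value under 0.05 before adjustment was found for 3 of the 23, beside 8.16% of all genes, and these are named here after their values were seen. *Stau2*, a double-stranded RNA-binding protein of dendritic granules, had 121.2 to 129.8 CPM in WT and 108.1 to 124.3 CPM in KO (log2 fold change -0.13, adjusted *P*-value 0.436). *Mov10*, an RNA helicase that associates with FMRP, had a log2 fold change of 0.15 (adjusted *P*-value 0.551), and *Ranbp9*, a scaffold protein, one of 0.11 (adjusted *P*-value 0.506). Without KO-Nut3 RH6 the values were -0.13, 0.16 and 0.11. In the first strand column they were -0.08, 0.21 and 0.13, and in the second -0.18, 0.10 and 0.10.

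Of 10 genes for the assembly and core of box C/D small nucleolar RNPs, the machinery around NUFIP1, 0 passed in any comparison, and 6 were higher and 4 lower in KO. Their log2 fold changes lay between -0.10 and 0.11. The most abundant were *Nop56* (80.9 CPM in WT, 81.0 CPM in KO), *Snu13* (70.6 and 68.6 CPM) and *Nop58* (46.3 and 49.8 CPM). The 3 genes next to *Cyfip1*, *Nipa1*, *Nipa2* and *Tubgcp5*, had 51.1, 27.8 and 31.4 CPM in WT and 50.4, 30.0 and 30.2 CPM in KO, and 0 of them passed in any comparison.

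**Figure D4:**
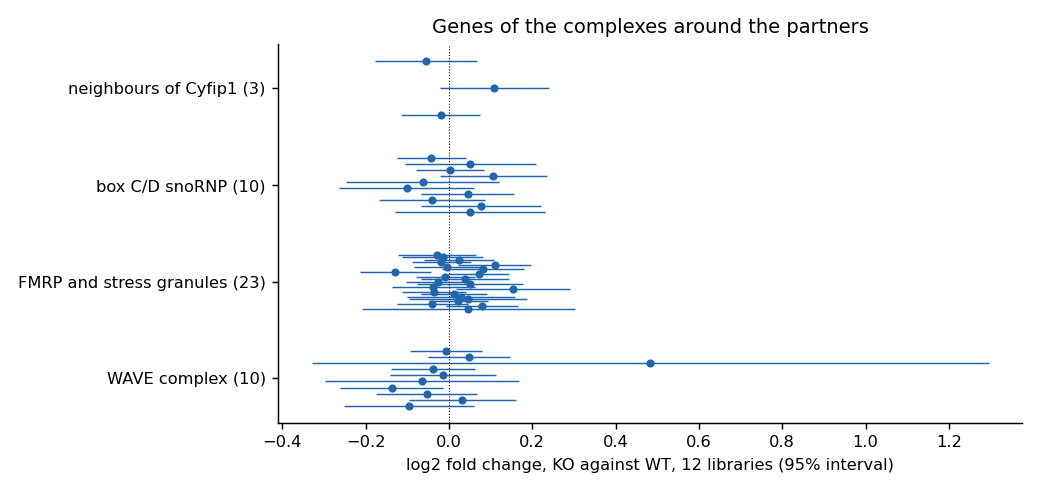
Log2 fold changes of KO against WT over 12 libraries (points, with 95% intervals as bars) for the genes of 4 lists, with the number of genes in parentheses. The points lie between -0.14 and 0.15 except *Abi3* (named after its value was seen), a gene at 0.349 CPM in WT with a value of 0.48 and a wide interval.

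The neighbours of *Fmr1* on chromosome X were described in the same way. Of the 10 nearest tested genes on each side, 0 of 20 passed in any comparison, and 12 were higher and 8 lower in KO over all libraries (median log2 fold change 0.05). The most abundant was *Ids*, a lysosomal sulfatase, at 515.2 CPM in WT and 505.4 CPM in KO, followed by the noncoding RNA *C230004F18Rik*, at 150.9 and 168.7 CPM, and *Cd99l2*. An unadjusted *P*-value under 0.05 was found for 2 of the 20, near the 8.16% of all genes. They were *Cd99l2* and the pseudogene *Gm715*, named after its value was seen, at 3.44 CPM in WT and 2.57 CPM in KO (log2 fold change -0.42, adjusted *P*-value 0.538).

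*Cd99l2*, which encodes a cell adhesion protein, starts 2702.1 kb beyond the end of *Fmr1*. It had 68.4 to 74.8 CPM in WT and 74.9 to 98.6 CPM in KO, so the genotypes did not overlap, as was the case for 0.536% of all genes, though the gap was narrow. The log2 fold change was 0.21 (95% interval 0.09 to 0.33, *P*-value 0.00238, adjusted *P*-value 0.417). The highest value was in KO-Nut3 RH6, and without it KO reached at most 82.5 CPM and the log2 fold change was 0.15. The one fit in which it passed was edgeR with every gene of at least 1 count (adjusted *P*-value 0.0224). That fit called 239 genes in place of 1.

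**Figure D5:**
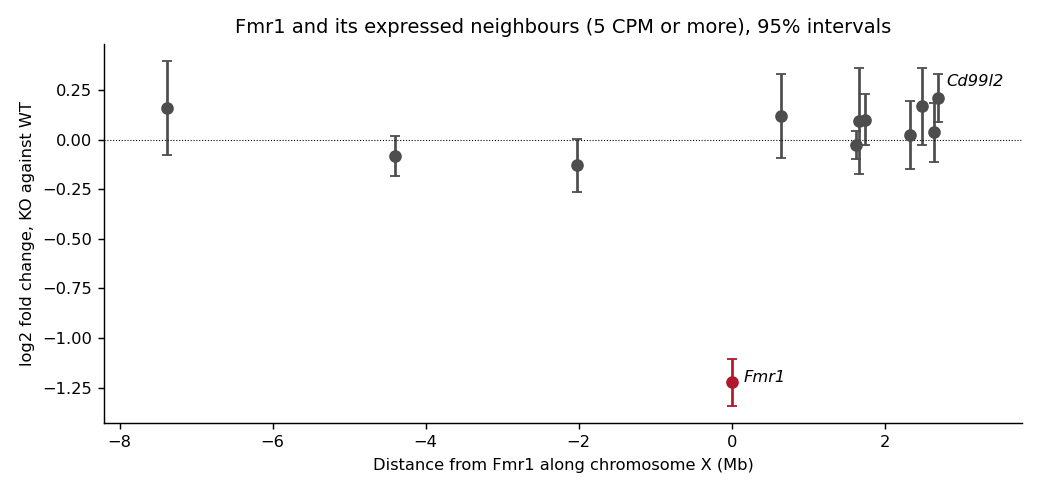
Log2 fold change of KO against WT over 12 libraries (95% intervals) for *Fmr1* (red) and those of its 20 nearest tested genes with a mean of at least 5 CPM, by distance in Mb along chromosome X. *Fmr1* is at -1.22, *Cd99l2* at 0.21, and the other neighbours lie between -0.13 and 0.17.

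The genes whose profile over the 12 libraries was most like that of *Fmr1* were sought among the 15345 tested genes with a mean of at least 1 CPM. Likeness was the root mean square difference of centred log2 CPM, for which a gene with no variation would have 0.62. The 5 closest were *Sec1* (0.31), *Nphs1* (0.32), *Gm32391* (0.32), *Upk1b* (0.35) and *2700046G09Rik* (0.36). None came closer to *Fmr1* than 0.31, beside the 0.62 of a flat profile. All 5 were low, at 1.98 to 5.73 CPM in WT. *Sec1* had 5.04 to 7.05 CPM in WT and 2.55 to 3.95 CPM in KO. Having been chosen for this pattern, they were not tested for it.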

How the data were processed

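Poly(A) RNA-seq libraries of hippocampus, 3 per group, were analysed. The deposited files hold raw counts of reads per gene, which the authors made by mapping to mm10 with STAR, without normalization. The STAR version is not given in the sources used here, and the labels name a single-read run on an older instrument while the methods name paired-end reads. The column without regard to strand was used, because one strand held 50.1% to 50.4% of the reads. Of all reads, 21.2% to 22.6% were on no single gene and were left out. A table of the whole series was not used here. Symbols, exons and lengths came from GENCODE M21 (55154 of 55421 identifiers matched).

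Counts were fitted in edgeR 4.0.16 (R 4.3.3, TMM factors 0.977 to 1.04) with the two-sided quasi-likelihood test on the 22592 genes with more than 20 counts over 12 libraries, and Benjamini-Hochberg adjusted *P*-values under 0.05 were called. Pairs of groups were fitted on their own 6 libraries. The comparisons of genotype and of treatment over all libraries used 12, with the other factor as a term, and the interaction was added to both. Intervals are at 95%. Log2 CPM used a prior count of 1. The fit was tested on simulated data. Alternatives were DESeq2 1.42.0, its size factors, other filters, each strand column, a block of animal numbers (up to RH8, from RH9), the choroid plexus score (mean log2 CPM of 12 markers), all libraries in one fit and leaving out each library. Leaving out 4 libraries (WT-Nut3 RH9 and every KO-Nut3 library) and the length of the longest coding transcript were added after the values were seen.

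The members and all lists were chosen with earlier results of these data known. Besides the members, the genes named are the 3 most abundant of each list, any that passed, and the 5 most like *Fmr1*, with marker genes named to describe the libraries, and others are marked as named after their values were seen. The labels give each library its own number, and the methods give 3 biological replicates per condition. The libraries were therefore taken as separate animals, and the spread between them is the error used.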

Additional observations from a re-analysis of the deposited data

Results flagged for a closer look

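Of 16 checks for a library far from the rest of its genotype (8 genes, 6 libraries each), 4 stood out, where chance alone gives about 1 in 20. For *Cyfip1*, WT-Veh RH2 had 142.2 CPM, with the next WT library at 129.0 CPM, and KO-Nut3 RH6 had 108.3 CPM, with the next KO library at 124.9 CPM. For *Nufip1*, WT-Nut3 RH14 had 16.1 CPM, with the next WT library at 14.1 CPM, and KO-Nut3 RH6 had 9.93 CPM, with the next KO library at 13.3 CPM. In both genes the gap was 0.629 to 0.661 of the whole range. KO-Nut3 RH6 is the library with the low sum of hippocampal neuron markers (993.9 CPM) and the high sum of thalamic markers (278.5 CPM), and the part of these in the 2 low values was not tested.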

How the results depend on the processing

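Of 788 values recomputed under alternatives, 765 kept their direction and their side of the threshold or moved within the allowed spread. *Fmr1* was called in every alternative of the genotype comparisons over all libraries and under vehicle. Leaving out 1 library gave *Fmr1* log2 fold changes of -1.36 to -1.20 between KO-Nut3 and WT-Nut3 and 0 to 1 members called, the 0 being without WT-Nut3 RH14 (-1.24, adjusted *P*-value 0.0991). Directions of uncalled genes near 0 turned in 12 values. *Nufip1*, KO against WT, was 0.0291 in the second strand column, 0.0193 with the choroid plexus score and 0.061 without the 4 libraries with high choroid plexus markers, and lay between -0.079 and 0.0316 with 1 library left out. With those 4 libraries left out, KO-Veh was the only KO group in the fit. *Caprin1* lay between -0.0157 and 0.0351 with 1 library left out. For *Cyfip2*, the choroid plexus score gave 0.0276 between WT-Nut3 and WT-Veh, and 0.016 for Nutlin-3 over all libraries, and leaving out 1 library gave -0.073 to 0.0021 in the former. Of the neighbours of *Fmr1*, 1 gene, *Cd99l2*, was called with every gene of at least 1 count kept. The choroid plexus score also moved *Fmr1* in KO-Nut3 against KO-Veh from -0.12 to -0.49, uncalled in both fits. In that comparison the score did not overlap between the groups, so it can hardly be separated from treatment. The cause of these shifts was not tested. The number of all genes called between KO and WT over all libraries was 1 in edgeR, 46 in DESeq2, 239 with at least 1 count, 10 with the number block and 5 with the choroid plexus score, and between KO-Veh and WT-Veh it was 4, 27, 272, 21 and 10. Between KO-Nut3 and WT-Nut3 it was 1 in edgeR, 7 in DESeq2 and 38 with at least 1 count. Between WT-Nut3 and WT-Veh it was 0, 0 and 249, with 11 under the number block, and for the interaction 0, 1 and 291. No paired analysis was made, because the sources used here do not give the litters of these animals. The intervals of uncalled members, KO against WT, reach from 83.8% to 123.4% of the WT level over 6 libraries a side and from 69.6% to 130.7% over 3.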
